A study of Rattus norvegicus with 6 samples.

Results

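RNA sequencing of 6 PAIII tumor samples, each from 1 rat, gave libraries of 2 kinds, which were chosen by their measured level of Sftpc, the mRNA of surfactant protein C. The table gives FPKM, in which fragments are divided by transcript length and by the mapped total, so that levels can be set beside each other between genes. Of the 6 samples, 4 (A1, A6, B5 and B9) had Sftpc above 1000 FPKM and are called lung-rich here, and 2 (A12 and B14) had it below 1 FPKM and are called lung-free. Sftpc was at 35405 FPKM in A1, 63514 in A6, 19188 in B5 and 24105 in B9, while A12 had 0.229 FPKM and B14 was listed at 0. No library lay between those limits, the lowest lung-rich value being 19188 FPKM and the highest lung-free value 0.229 FPKM. The description covers 10740 of the 17030 gene symbols of the table, those that averaged 1 FPKM or more across the libraries. PAIII is a prostate carcinoma of the Lobund-Wistar rat that does not need androgen and has been kept by passage from rat to rat. By the methods, cells were injected under the skin of the flank of rats aged 2 months, dosing began on day 10, and tumors were taken on day 40. A1, A6 and A12 are labelled as treated with digitoxin, a cardiac glycoside given daily at 0.03 mg/kg, and B5, B9 and B14 as given vehicle, so each kind of library held both treatments. The rats were not a random draw: treated rats with low and vehicle rats with high serum IL-6 and CINC-1 were taken, so that treatment and this selection cannot be told apart. RNA came from 10 punches, 1 mm wide, of viable regions with many islands of tumor cells, in 300 micron sections of each frozen primary tumor. The labels and the methods give primary tumor as the tissue for all 6 libraries, and how lung transcripts came to be in 4 of them was not tested.

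The gas-exchange surface of the lung is lined by flat alveolar type 1 cells and by alveolar type 2 cells, which make the surfactant proteins. Club cells, which secrete Scgb1a1, and ciliated cells line the airways, and the transcription factor Nkx2-1 is needed for lung epithelium to form and to express its surfactant genes. A subcutaneous carcinoma holds none of these epithelial cells, but it does hold fibroblasts that lay down collagen, vessels, and leukocytes drawn by chemokines, many of which are targets of the inflammatory factor NFκB.

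To show the DNA next to the start sites of mRNAs that set the 2 kinds of library apart, the promoters of Sftpb and Scgb1a1 (high only in lung-rich libraries), of S100a11 (high in all 6) and of Cxcl2 (higher in lung-free libraries) are given. Each runs 5′ to 3′ on the strand of the gene, from 250 bases before to 50 bases after the RefSeq start site in GRCr8. They lie at chr4:105917338-105917637 (plus strand), chr1:215409637-215409936 (minus), chr2:181874882-181875181 (plus) and chr14:17467206-17467505 (minus), in the same order. Capitals mark CTCAAG, the core of the NKX2-1 motif, in the first 3, and a form of the NFκB motif (GGG, any 2 bases, then TTTCC) in Cxcl2, on either strand.
Sftpb: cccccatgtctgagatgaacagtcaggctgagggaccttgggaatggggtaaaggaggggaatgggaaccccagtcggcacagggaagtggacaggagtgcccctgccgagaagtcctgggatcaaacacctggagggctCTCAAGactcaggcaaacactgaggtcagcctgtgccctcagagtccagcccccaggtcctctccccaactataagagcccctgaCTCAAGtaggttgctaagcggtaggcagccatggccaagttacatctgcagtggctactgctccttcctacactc
Scgb1a1: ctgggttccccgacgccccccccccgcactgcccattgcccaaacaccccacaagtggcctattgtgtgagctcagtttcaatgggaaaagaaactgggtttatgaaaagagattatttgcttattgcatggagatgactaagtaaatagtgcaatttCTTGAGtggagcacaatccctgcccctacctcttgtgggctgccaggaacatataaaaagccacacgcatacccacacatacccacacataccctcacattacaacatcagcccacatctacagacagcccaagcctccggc
S100a11: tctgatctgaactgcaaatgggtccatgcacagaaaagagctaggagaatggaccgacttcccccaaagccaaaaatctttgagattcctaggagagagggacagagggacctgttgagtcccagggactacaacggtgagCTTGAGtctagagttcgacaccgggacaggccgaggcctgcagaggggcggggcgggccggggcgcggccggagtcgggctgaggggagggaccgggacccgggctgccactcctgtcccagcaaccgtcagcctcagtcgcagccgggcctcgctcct
Cxcl2: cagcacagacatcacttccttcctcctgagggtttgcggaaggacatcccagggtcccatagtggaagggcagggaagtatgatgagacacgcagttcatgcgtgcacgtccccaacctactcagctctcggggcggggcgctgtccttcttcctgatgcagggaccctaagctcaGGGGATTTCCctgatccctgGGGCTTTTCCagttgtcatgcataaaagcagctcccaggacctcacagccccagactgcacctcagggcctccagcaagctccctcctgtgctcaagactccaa
The Sftpb window held 2 matches to CTCAAG, the Scgb1a1 window 1 and the S100a11 window 1, and the Cxcl2 window held 2 matches to the NFκB form. CTCAAG, left in lower case there, also stood in the window of Cxcl2, which was lower in lung-rich libraries. CTCAAG, searched on both strands, was in 15.8% of all 33469 promoters of the table, in 19.6% of the 454 promoters found for genes higher in lung-rich libraries, and in 14.1% of the 170 found for genes lower there. The NFκB form was in 1.53% of all promoters, in 1.54% of the first set and in 1.18% of the second. A match is a run of letters and not a site of binding. S100a11 held the same core as Sftpb although its mRNA was not higher in lung-rich libraries.

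The lung-free libraries were more alike than any other pair. Over the 10740 genes the correlation of log2(FPKM + 1) was 0.985 between A12 and B14, from 0.856 to 0.969 among the 6 pairs of lung-rich libraries, and from 0.618 to 0.865 across the 8 mixed pairs, so that the lung-rich and mixed ranges overlapped. The lowest lung-rich pairs were those of A6 with B9 and B5 (0.856 and 0.859), and the highest mixed pairs were those of B5 with A12 and B14 (0.865 and 0.860). These points are genes, which are not independent replicates. A6 stood apart within the lung-rich libraries. It differed by at least 2-fold at 36.7% of genes from B9 and at 21.3% from A1, whereas A1 and B9 differed at 5.98%. FPKM summed to between 651322 in B14 and 1025231 in A6. Sftpc and Scgb1a1 together held 10.99% of the sum in A1, 18.8% in A6, 4.76% in B5 and 6.52% in B9. Depth is unknown for these values, since no reads were used here.

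A gene was counted as higher or lower when the 4 lung-rich and the 2 lung-free values did not overlap and the means of log2(FPKM + 1) differed by at least 2, which is 4-fold. By this count 662 genes (6.16% of all) were higher and 244 (2.27%) were lower in the lung-rich libraries. The median difference over all genes was -0.10. Because the libraries were selected on Sftpc from the same values, these counts and differences are a description and carry no test. In a bulk library, fewer cells of a type and less RNA per cell cannot be told apart. Where a library is listed at 0, the size of a log2 difference depends on the added 1, and no fold is given. The plot of 13 mRNAs by library shows the range, from genes near 0 in the lung-free libraries to genes near 0 in the lung-rich ones.

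**Figure D1:**
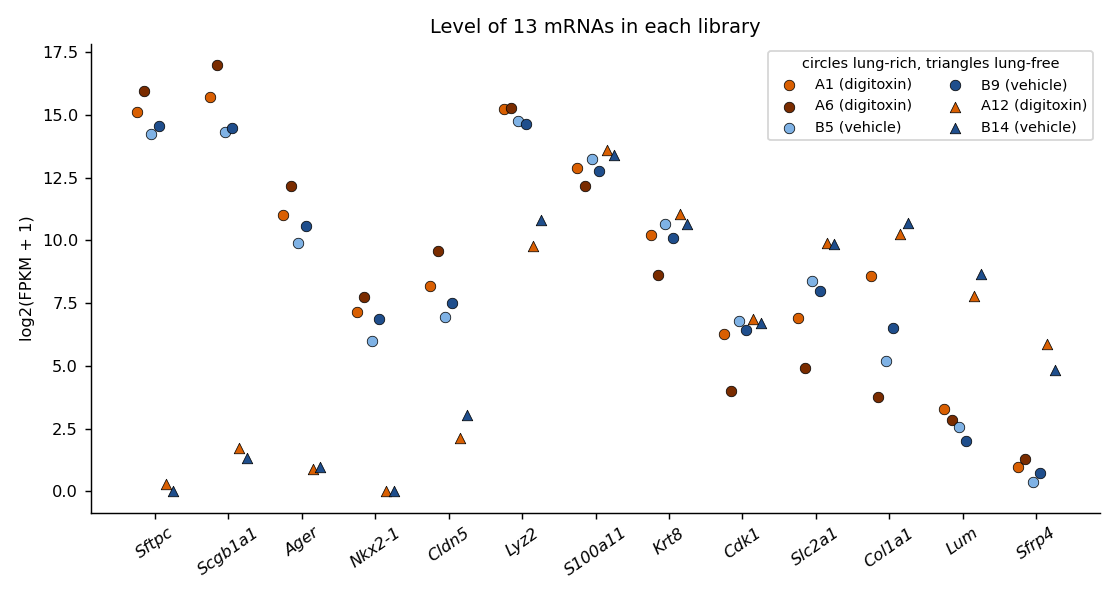
Level of 13 mRNAs in each of the 6 libraries, as log2(FPKM + 1). Circles are the 4 lung-rich libraries, triangles the 2 lung-free libraries, orange and brown digitoxin, blue vehicle, and each point is 1 library. Sftpc to Lyz2 were higher in every lung-rich library, Slc2a1 to Sfrp4 were lower in each, and Cdk1 overlapped, with A6 lowest at 15.1 FPKM.

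Transcripts of alveolar type 2 cells had the largest median difference of the 37 lists. Of 18 genes on the list, 15 were in the table and described, of which 13 were higher in the lung-rich libraries and 0 lower, and their median log2 difference was 7.81. The list's median level, which includes Sftpc, was 403 FPKM in A1, 317 in A6, 210 in B5 and 352 in B9, against 0.0949 in A12 and 0.0639 in B14. Sftpa1, the mRNA of surfactant protein A, was at 7068 FPKM in A1, 6689 in A6, 4588 in B5 and 5674 in B9, and listed at 0 in A12 and B14. Sftpb, whose product lets surfactant spread, was at 3417, 4957, 1033 and 2259 FPKM in A1, A6, B5 and B9, and listed at 0 in both lung-free libraries. Both mRNAs were therefore above 1000 FPKM in every lung-rich library. Lamp3, of the lamellar bodies that store surfactant, was at 247, 149, 209 and 327 FPKM in A1, A6, B5 and B9. Its order differed from that of Sftpb, with A6 lowest. Ctsh, a lysosomal protease that many cells use, was at 1022, 1396, 859 and 926 FPKM in the same libraries and at 209 and 240 FPKM in A12 and B14, so that it was present in both kinds. The list members that missed the 4-fold limit, Slc39a8 and Etv5, were higher in each lung-rich library by 1.25 and 0.94 on the log2 scale.

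Type 1 cell transcripts were high as well. All 14 genes on the list were described, and 10 were higher and 0 lower, with a median difference of 3.51. Ager, the receptor RAGE and a marker of type 1 cells, was at 2092 FPKM in A1, 4574 in A6, 965 in B5 and 1529 in B9, against 0.840 in A12 and 0.975 in B14. Aqp5, a water channel, was at 569, 908, 230 and 354 FPKM in A1, A6, B5 and B9, and at 0.113 and 0.0737 in A12 and B14. For both, the sides lay far apart, and A6 held the highest and B5 the lowest value of the lung-rich libraries. Cav1, which coats caveolae in many cells, was at 506, 446, 400 and 492 FPKM in the lung-rich libraries and at 220 and 221 FPKM in A12 and B14. Vegfa, an angiogenic factor that tumor cells also make, overlapped between the sides, at 104 to 266 FPKM in the lung-rich and at 129 and 159 FPKM in the lung-free libraries.

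Airway transcripts were high in the lung-rich libraries too, with wide gaps among them. Of 18 club and secretory airway genes, 14 were described, and 12 were higher and 0 lower, with a median difference of 4.50. Scgb1a1, the club cell secretory protein, was at 54124 FPKM in A1, 129228 in A6, 20630 in B5 and 22674 in B9, and at 2.31 and 1.51 FPKM in A12 and B14. Scgb3a2, another secretoglobin, was at 1098, 1543, 275 and 189 FPKM in A1, A6, B5 and B9, and listed at 0 in both lung-free libraries. Both were higher in A1 and A6 than in B5 and B9. Of 25 ciliated cell genes, 16 were in the table and 12 were described, of which 7 were higher and 0 lower, with a median of 2.14. Foxj1, which drives the making of motile cilia, was at 19.2 FPKM in A1, 24.4 in A6, 2.21 in B5 and 2.68 in B9, listed at 0 in A12 and at 0.0485 in B14. Dynlrb2, a dynein chain, was at 89.0, 203, 20.1 and 14.97 FPKM in A1, A6, B5 and B9, and at 0.371 and 0.243 in A12 and B14. Dnai2, also a dynein chain, went the other way, at 2.86 to 5.63 FPKM in the lung-rich libraries and at 10.3 and 8.02 FPKM in A12 and B14.

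Of 18 lung transcription factor genes, 15 were described, 4 were higher and 0 lower, and their median difference was 0.65. Nkx2-1 was at 139 FPKM in A1, 213 in A6, 62.9 in B5 and 117 in B9, and listed at 0 in A12 and B14. Foxa2, which acts with Nkx2-1 in lung epithelium, was at 39.7, 53.1, 23.9 and 26.0 FPKM in A1, A6, B5 and B9, and at 7.40 and 5.07 in A12 and B14. Tbx4, a factor of lung mesenchyme, was at 7.81 to 13.3 FPKM in the lung-rich libraries, listed at 0 in A12 and at 0.108 in B14. The list was split in direction, with 8 members higher and 7 lower on average. Among the lower, Elf3, an epithelial factor, was at 67.8, 46.5, 140 and 121 FPKM in A1, A6, B5 and B9, against 231 and 178 FPKM in A12 and B14, and Klf5 was at 24.4 to 56.3 FPKM against 71.8 and 74.7.

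Enzymes that modify foreign compounds, many of them made by club and type 2 cells, were higher as well. Of 23 listed, 21 were described, 13 were higher and 0 lower, with a median difference of 3.65. Cyp2b1, a lung cytochrome P450, was at 475, 633, 254 and 295 FPKM in A1, A6, B5 and B9, and at 1.91 and 1.47 in A12 and B14. Aldh1a1, a retinal dehydrogenase, was at 145, 228, 68.8 and 61.3 FPKM in A1, A6, B5 and B9, and at 0.196 and 0.222 in A12 and B14. Gstp1, a glutathione transferase common in carcinoma, overlapped between the sides, at 405 to 752 FPKM in the lung-rich and at 782 and 695 FPKM in the lung-free libraries. The remaining mRNAs among the 15 with the largest differences were Defb4, a defensin, S100g, Sftpd, Sec14l3, Retnla, Ly6i, Sfta2 and Akr1cl. Defb4 was at 6651, 12565, 3556 and 1447 FPKM in A1, A6, B5 and B9, and listed at 0 in A12 and B14. S100g, a calcium-binding protein that lung expresses, was at 868, 2755, 788 and 867 FPKM in the same order, and also listed at 0 in both.

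**Figure D2:**
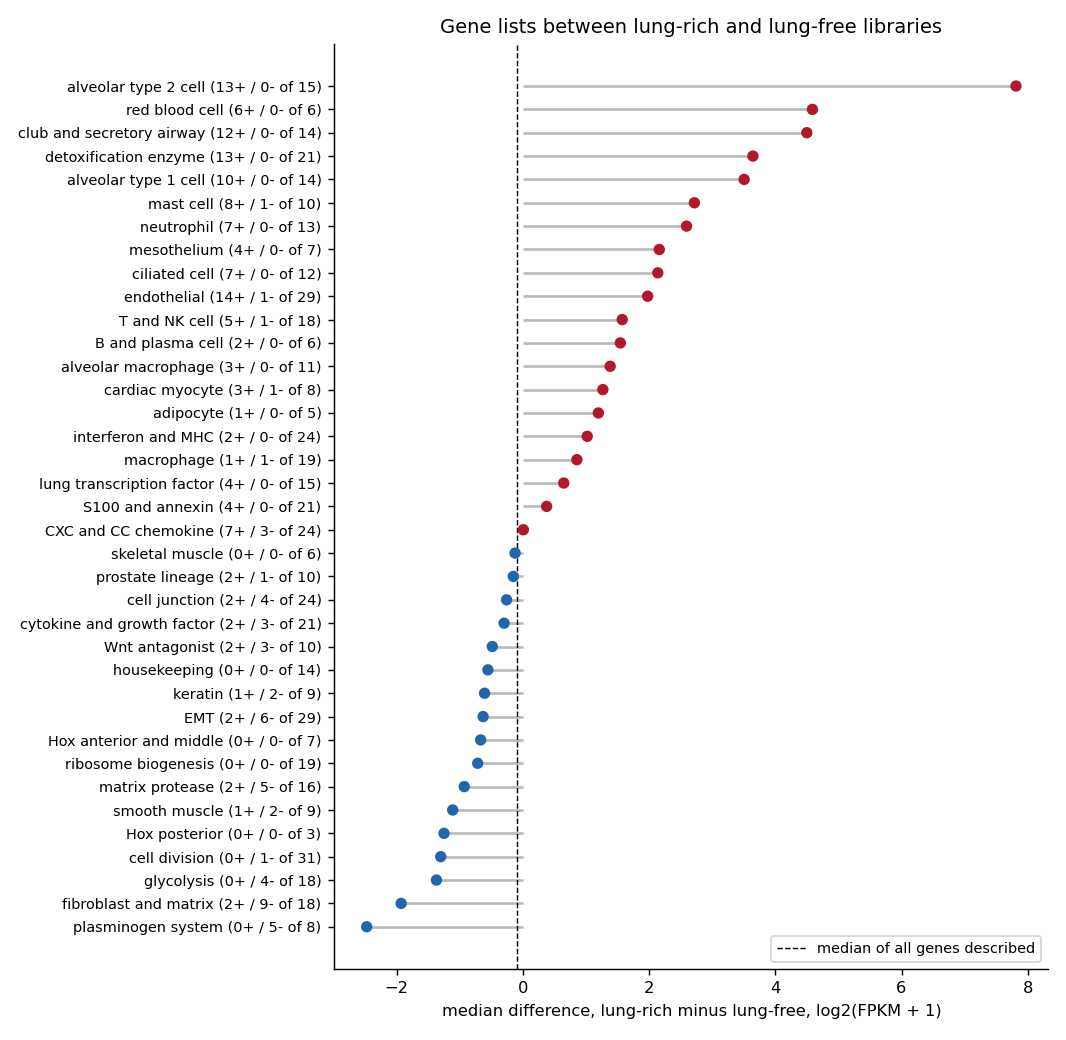
Median difference in log2(FPKM + 1), lung-rich minus lung-free, of the described genes of each of 37 lists. Numbers in brackets count genes higher (+) and lower (-) by at least 4-fold without overlap, of those described, and the dashed line is the median of all 10740 genes, -0.10. The medians run from 7.81 for alveolar type 2 cells to -2.47 for the plasminogen system.

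Endothelial, blood and leukocyte transcripts were also higher. The smooth muscle list was not, with 1 higher and 2 lower of 9 described and a median of -1.11. Of 30 endothelial genes 29 were described, 14 were higher and 1 lower, with a median difference of 1.98. Cldn5, of endothelial tight junctions, was at 286, 767, 121 and 178 FPKM in A1, A6, B5 and B9, against 3.37 and 7.17 FPKM in A12 and B14. Pecam1, found on all endothelium, was at 95.7, 163, 37.7 and 70.3 FPKM in A1, A6, B5 and B9, against 13.5 and 16.9. The exception was Flt1, a VEGF receptor, at 14.1, 1.41, 19.6 and 32.7 FPKM in A1, A6, B5 and B9 and at 60.0 and 69.4 FPKM in A12 and B14. All 6 red blood cell genes described of 10 listed were higher, with a median of 4.59. Hba1, of alpha globin, was at 2592, 7017, 2593 and 1666 FPKM in A1, A6, B5 and B9, against 62.8 and 176 FPKM in A12 and B14. The globin genes are near copies of each other, so the share of reads given to each is uncertain.

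Of 16 neutrophil genes 13 were described, 7 were higher and 0 lower, with a median of 2.59. S100a8, which forms calprotectin with S100a9, was at 12244, 34402, 16249 and 5450 FPKM in A1, A6, B5 and B9, against 576 and 1308 FPKM in A12 and B14. Cxcr1, a receptor for neutrophil chemokines, was at 36.7, 30.5, 18.1 and 24.2 FPKM in A1, A6, B5 and B9, and listed at 0 in A12 and B14, whereas Cxcr2 overlapped, at 7.95 to 36.9 FPKM against 8.95 and 12.7. Mast cell genes numbered 10 of 12 described, 8 higher and 1 lower, with a median of 2.72. Mcpt2, a mast cell protease, was at 19.2, 8.10, 116 and 26.2 FPKM in A1, A6, B5 and B9, and listed at 0 in both lung-free libraries. Kit, the mast cell growth factor receptor, was the lower one, at 11.9, 1.67, 17.4 and 27.0 FPKM against 41.6 and 51.9 FPKM in A12 and B14. Of 20 T and NK cell genes 18 were described, 5 were higher and 1 lower (6.16% and 2.27% over all genes). Gzma, a granzyme of killer cells, was at 15.3, 35.2, 9.50 and 23.4 FPKM in A1, A6, B5 and B9, against 0.197 and 0.679 FPKM, and the lower gene was Thy1, which rat fibroblasts also carry.

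General macrophage genes were nearer to even between the sides. Of 19 described of 20 listed, 1 was higher and 1 lower (6.16% and 2.27% over all genes), with a median of 0.86. The higher gene was Lyz2, a lysozyme that type 2 cells also make, at 38730, 39245, 27464 and 25503 FPKM in A1, A6, B5 and B9, against 887 and 1791 FPKM in A12 and B14. The lower gene was Cd163, a scavenger receptor of resident macrophages, at 0.489 to 2.64 FPKM against 5.41 and 10.6. C1qa, of complement, was lower in each lung-rich library, at 72.3 to 236 FPKM against 275 and 435. Of 14 alveolar macrophage genes 11 were described, 3 were higher and 0 lower. Fabp4, a fatty acid binding protein that adipocytes and endothelium also make, overlapped, at 792, 315, 2020 and 930 FPKM in A1, A6, B5 and B9, against 2036 and 1554 FPKM in A12 and B14. Summed over the list, the level overlapped too, at 1300 to 2496 FPKM against 2151 and 1766. Chi3l1, a secreted chitinase-like protein, was at 388, 533, 228 and 231 FPKM in A1, A6, B5 and B9, against 15.5 and 24.0 FPKM in A12 and B14. All 24 interferon and MHC genes described of 25 listed were higher on average in the lung-rich libraries, and the sides did not overlap for 23 (29.3% of all genes were higher without overlap), but only 2 reached 4-fold and the median was 1.02. Mesothelial genes were 7 of 12 described, with 4 higher and 0 lower. Gpm6a, which pleural mesothelium expresses, was at 19.6, 8.66, 19.6 and 19.6 FPKM in A1, A6, B5 and B9, and listed at 0 in A12 and B14. Msln, of mesothelium and many carcinomas, overlapped, at 77.6 to 193 FPKM against 152 and 174. Of 15 cardiac myocyte genes 8 were described, 3 were higher (Tnni3, Actc1 and Ankrd1) and 1 lower. The lower gene was Nppb, of natriuretic peptide B, at 71.6 FPKM in A1, listed at 0 in A6, and at 177 in B5 and 65.1 in B9, against 669 and 535 FPKM in A12 and B14. Myl7, of atrial muscle, was at 28.9 FPKM in A1 and at 0.417 or listed at 0 in the other libraries. Summed over the list, the level was 43.9 to 326 FPKM in the lung-rich libraries and 817 and 638 FPKM in A12 and B14, with Nppb as the greater part in the lung-free ones.

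The genes lower in the lung-rich libraries were led by matrix and stromal mRNAs. Of 24 fibroblast and matrix genes 18 were described, 9 were lower and 2 higher, with a median difference of -1.93. Summed over the list, the level was 1146 to 2514 FPKM in the lung-rich libraries and 5223 and 7079 FPKM in A12 and B14. Lum, a proteoglycan that binds collagen fibrils, was at 8.67 FPKM in A1, 6.07 in A6, 4.85 in B5 and 3.02 in B9, against 217 in A12 and 401 in B14. Thy1 was at 4.02, 1.04, 3.27 and 3.80 FPKM in A1, A6, B5 and B9, against 87.2 and 90.7 FPKM. Fap, the fibroblast activation protein of tumor stroma, was at 0.749, 0, 1.14 and 0.694 FPKM in A1, A6, B5 and B9, against 16.2 and 21.0 FPKM in A12 and B14. Lum, Thy1 and Fap were at 10 FPKM or less in every lung-rich library, with no overlap. Col1a1, of type I collagen, was at 381, 12.7, 35.4 and 88.8 FPKM in A1, A6, B5 and B9, against 1205 and 1665 FPKM, so that A1 was above the other lung-rich libraries. The 2 members higher in the lung-rich libraries were Tcf21, a factor of lung lipofibroblasts, and Fbln5, which organises elastic fibres. Tcf21 was at 38.3, 54.1, 16.6 and 31.5 FPKM in A1, A6, B5 and B9, and listed at 0 in both lung-free libraries. Eln, elastin itself, was at 33.3, 53.2, 40.1 and 34.01 FPKM in A1, A6, B5 and B9, against 7.02 and 12.2. Col1a2 was listed at 0 in all 6 libraries, and genes that every cell uses (Tpi1, Hprt1) were at or near 0 too, so a listed 0 can be a failed estimate.

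Sfrp4, a secreted Wnt antagonist of stroma, was at 0.976 FPKM in A1, 1.44 in A6, 0.309 in B5 and 0.654 in B9, against 58.1 in A12 and 27.5 in B14. Its lung-rich mean of 0.845 ± 0.482 FPKM (SD, n = 4) was 50.6 times below the lung-free mean. The table places it on chromosome 17, from 56095165 to 56105248, and Sftpc on chromosome 15, from 55935054 to 55937997, on a rat build not given in the sources used here. Of 17 Wnt antagonist genes 10 were described, 2 were higher and 3 lower (6.16% and 2.27% over all genes). Wif1, which type 2 cells make, was at 42.0, 58.8, 18.0 and 37.6 FPKM in A1, A6, B5 and B9, against 0.0662 and 0.269 FPKM, opposite to Sfrp4. S100a11, a calcium-binding protein of many epithelia, was among the most abundant mRNAs in all 6 libraries. It was at 7509, 4662, 9818 and 6930 FPKM in A1, A6, B5 and B9 and at 12403 and 10751 FPKM in A12 and B14, so the sides did not overlap but had a log2 difference of only -0.72.

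Plasminogen system and matrix protease genes were more often lower than higher in the lung-rich libraries. Of 10 plasminogen system genes 8 were described, 5 were lower and 0 higher, with a median of -2.47. Serpine2, a protease inhibitor, was at 136 FPKM in A1, 10.4 in A6, 242 in B5 and 188 in B9, against 671 and 625 FPKM in A12 and B14. Serpinb2, the plasminogen activator inhibitor PAI-2, was at 19.8, 48.9 and 27.5 FPKM in A1, B5 and B9, listed at 0 in A6, and at 115 and 137 FPKM in the lung-free libraries. Both were thus at intermediate levels in 3 lung-rich libraries and lowest in A6. Of 19 matrix protease genes 16 were described, 5 were lower and 2 higher (2.27% and 6.16% over all genes). Mmp3, stromelysin-1, was at 14.3, 0.0852, 23.6 and 14.2 FPKM in A1, A6, B5 and B9, against 371 and 377. Mmp13, a collagenase, was at 1.10, 0, 3.43 and 2.27 FPKM in A1, A6, B5 and B9, against 36.7 and 65.5 FPKM in A12 and B14. Both were far lower on the lung-rich side, and A6 was lowest. The members higher there were Timp3 and Mmp15.

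Among 24 chemokine genes described of 25 listed, 7 were higher and 3 lower (6.16% and 2.27% over all genes), with a median of 0.00800. Cxcl5, a neutrophil chemokine, was at 126 FPKM in A1, listed at 0 in A6, at 378 in B5 and 403 in B9, against 1864 in A12 and 1153 in B14. Cxcl2, whose promoter is shown above, was at 3.14, 0.311, 24.6 and 6.50 FPKM in A1, A6, B5 and B9, against 93.7 and 234 FPKM. Both chemokines were lowest in A6 and highest in the lung-free libraries. Cxcl3, of the same family, went the other way, at 288, 319, 189 and 288 FPKM in A1, A6, B5 and B9 against 55.3 and 70.7, as did Ccl5, a T cell chemokine, at 58.7 to 203 FPKM against 3.27 and 2.69. Among cytokines, Csf3, the neutrophil growth factor, was at 5.90, 0.319, 14.1 and 14.1 FPKM in A1, A6, B5 and B9, against 88.6 and 51.5 FPKM.

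Keratin and junction genes were counted against shares of 6.16% higher and 2.27% lower over all genes. Of 17 keratins 9 were described, 1 was higher (Krt23) and 2 were lower (Krt16 and Krt17), with a median of -0.61. Of 27 junction genes 24 were described, 2 were higher (Cldn5 and Cldn18) and 4 lower (Cldn1, Cldn4, Dsc2 and Pkp1), with a median of -0.26 and a difference above 0 for 10. Krt8, a keratin of simple epithelia, was at 1181, 398, 1618 and 1086 FPKM in A1, A6, B5 and B9, against 2095 and 1629 FPKM in A12 and B14. Krt16, of stressed epithelium, was at 49.8, 70.2 and 41.8 FPKM in A1, B5 and B9, listed at 0 in A6, and at 83.2 and 75.2 FPKM in the lung-free libraries. Cldn4, a tight junction claudin, was at 80.9, 6.69, 227 and 185 FPKM in A1, A6, B5 and B9, against 514 and 381 FPKM. Of 22 prostate lineage genes 21 were in the table and 10 described, of which 2 were higher (Steap4 and Spdef) and 1 was lower (Steap1), with a median of -0.15. Of those that were not described, Hoxb13, a factor of prostate epithelium, was at most 0.0937 FPKM, and Pbsn, Msmb and Klk1, which encode secreted proteins, were listed at 0 in all 6 libraries. As above, a listed 0 can be a failed estimate.

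Sugar metabolism and cell division genes were lower in the lung-rich libraries without exception in direction. All 18 glycolysis genes described of 21 listed were lower on average, 4 of them by 4-fold, with a median of -1.37. Slc2a1, the glucose transporter GLUT1, was at 119, 29.5, 337 and 254 FPKM in A1, A6, B5 and B9, against 949 and 932 FPKM in A12 and B14. All 31 cell division genes described of 34 listed were lower on average, with a median of -1.30, but only Top2a reached 4-fold without overlap. Cdk1, a kinase that starts mitosis, was at 76.7, 15.1, 108 and 86.2 FPKM in A1, A6, B5 and B9, against 115 and 104 FPKM, so that B5 was within the lung-free range. The median of the list was 23.6 FPKM in A1, 3.85 in A6, 32.6 in B5 and 34.8 in B9, and 61.0 and 53.4 FPKM in A12 and B14. Of 14 housekeeping genes described of 16 listed, 0 reached 4-fold in either direction, and their median of -0.55 was below that of all genes.

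**Figure D3:**
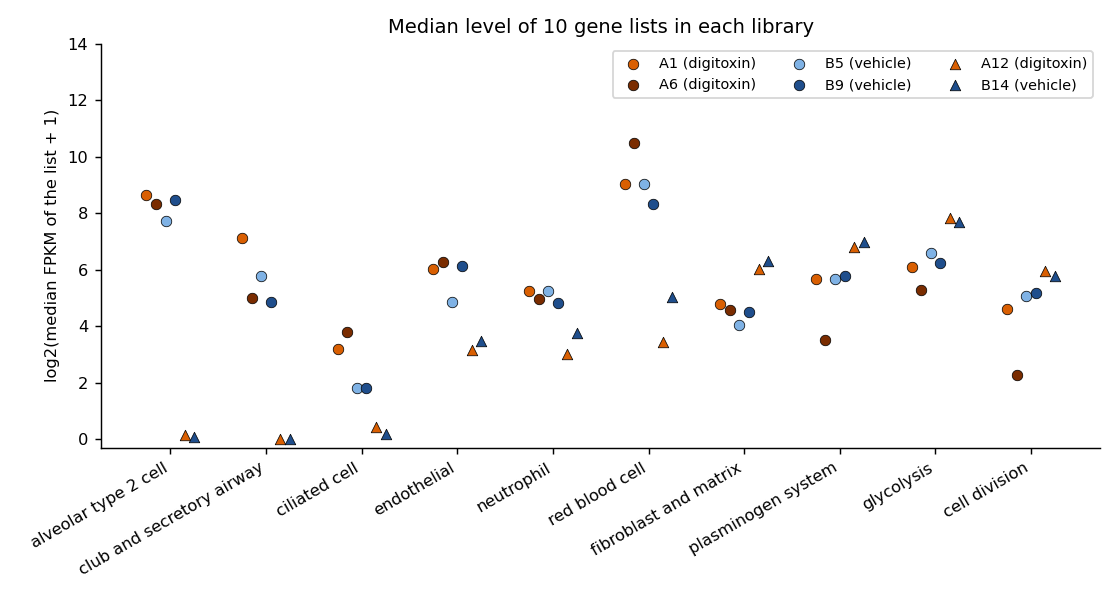
Median FPKM of the described genes of 10 lists in each library, as log2(median + 1), with circles for lung-rich and triangles for lung-free libraries. A6 had the lowest plasminogen system (10.4 FPKM), glycolysis (38.1 FPKM) and cell division (3.85 FPKM) medians and the highest red blood cell median (1452 FPKM).

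Because A6 entered the choice of the 244 lower genes, its level over them is partly set by that choice. Set against the mean of A12 and B14, their median level was 19.2% in A1, 28.6% in B5 and 30.8% in B9, but 1.60% in A6. Of the 244, 40 were listed at 0 in A6, 1 each in A1 and B5, and 0 in B9. Of the 6465 genes with at least 10 FPKM in both lung-free libraries, 266 were below 1 FPKM in A6, against 6 in each of the other lung-rich libraries. A6 was the lowest lung-rich library for 224 of the 244 lower genes and the highest for 508 of the 662 higher genes. Without A6 the count of lower genes was 102 (without B9 it was 417), 100 of them among the 244, and the count of higher genes was 582, 568 of them among the 662. Over the 102 genes chosen without A6, the median level was 13.4% of the lung-free mean in A1, 14.1% in B5 and 14.8% in B9, and 1.80% in A6, which was not used to choose them. In the lung-free libraries, 316 of the 662 higher genes were below 1 FPKM in both.

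**Figure D4:**
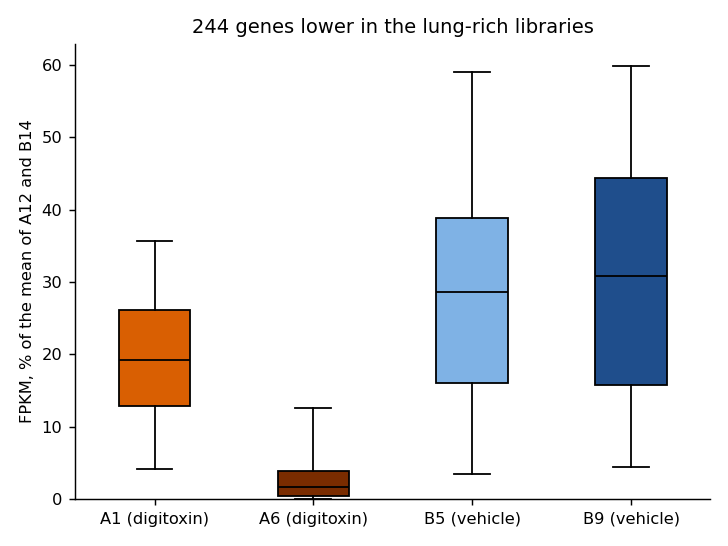
Level of the 244 genes lower in the lung-rich libraries, as a percentage of the mean FPKM of A12 and B14, in each lung-rich library. Boxes span the middle 50% of genes with the median as a line, and whiskers run from the 5th to the 95th percentile. All 4 libraries entered the choice of these genes. The medians were 19.2% in A1, 1.60% in A6, 28.6% in B5 and 30.8% in B9.

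The study asked whether digitoxin lowers genes of the epithelial-mesenchymal transition (EMT), in which epithelial cells take on a migratory state. It names 9 EMT-related genes, of which Aldh1a was read here as Aldh1a2. Of the 9, 2 were higher in the lung-rich libraries (Timp3 and Aldh1a2), 1 was lower (Sfrp4) and 6 did not reach 4-fold without overlap. Aldh1a2, a retinal dehydrogenase of mesothelium, was at 27.0, 13.01, 19.6 and 17.4 FPKM in A1, A6, B5 and B9, against 0.181 and 0.447 FPKM in A12 and B14. Timp3, a protease inhibitor, was at 160, 40.2, 51.8 and 74.4 FPKM, against 4.28 and 10.4 FPKM. Both were above the lung-free range in every lung-rich library under either treatment. Tgfbr2, the type II TGFβ receptor, overlapped, at 30.6 FPKM in A1, 8.40 in A6, 21.7 in B5 and 51.5 in B9, and at 7.80 in A12 and 16.6 in B14. Epas1, a hypoxia factor that endothelium expresses strongly, was at 67.7, 15.7, 15.03 and 110 FPKM in A1, A6, B5 and B9, against 7.51 and 12.2. Over the wider EMT list of 30 genes, 29 were described, 2 were higher and 6 lower (6.16% and 2.27% over all genes). Twist1, a factor of mesenchymal cells, was at 0.463 to 1.80 FPKM against 10.1 and 16.3, while Vim, vimentin, overlapped, at 1117 to 1855 FPKM against 1684 and 1975.

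The treatment was compared within each kind of library, which the selection on Sftpc did not use, with directions as labelled. Among the lung-rich libraries there were 2 digitoxin-treated (A1, A6) and 2 vehicle (B5, B9) libraries. Nothing in the labels says more of the libraries of a group than that they are separate tumors, so p-values measure the spread between these libraries. By limma's test over all 10740 genes, with p-values adjusted by Benjamini-Hochberg, 2 genes (0.0186%) passed 0.05, and 416 (3.87%) had a higher and 771 (7.18%) a lower level with digitoxin at an unadjusted p under 0.05. With median-of-ratios scaling the split turned to 839 higher and 419 lower, and with all 6 libraries in the fit, with or without side as a term, 0 genes passed the adjusted threshold. Both that passed are microRNA hairpin entries. Mir3561 was listed at 0 in every library but B5 (1121 FPKM) and B9 (357 FPKM), with an adjusted p of 0.0104 (limma). Mir3567 likewise had values in B5 (192 FPKM) and B9 (497 FPKM) alone, also with an adjusted p of 0.0104 (limma). Both passed the minimum of 1 FPKM only through the vehicle libraries, and with no minimum 0 genes passed the adjusted threshold (smallest adjusted p 0.501, limma, with 526 higher and 436 lower at an unadjusted p under 0.05). A hairpin is a short transcript, for which few fragments give a large FPKM, and all 6 such entries described were listed at 0 in at least 1 library. Mir3074 had the largest positive difference at an unadjusted p under 0.05, with 367 and 265 FPKM in A1 and A6, 120 in B9 and 0 in B5, and an adjusted p of 0.391 (limma). Its difference of 4.83 was 1.37 without B5 and 8.29 without B9. The mature forms of Mir3561 and Mir3074 are given from RefSeq with the seed, bases 2 to 8, in capitals, and Mir3567 is named only.
rno-miR-3561-5p: aCUGUGUCaauccaggguaga
rno-miR-3561-3p: uAUCCAGGguagacacucaga
rno-miR-3074: gAUAUCAGcucaguaggcaccg
The 3 seeds differ from each other.

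Outside the hairpin entries no adjusted p from limma was below 0.391 in the main fit of the 4 lung-rich libraries. With the replicate number as a block, which leaves 1 residual degree of freedom, 272 genes passed in limma, among them Mir3074, Cyp2a3, Cyp2f4, Agr2, Scgb3a1, Cxcl5, Il24 and Aldh1a3, with adjusted p from 1.38e-05 for Cyp2a3 to 0.0170 for Agr2. The other genes with the largest differences at an unadjusted p under 0.05, without overlap, were airway genes on the higher side. Cyp2a3, a cytochrome P450 of airway epithelium, was at 166 FPKM in A1, 28.6 in A6, 4.85 in B5 and 1.32 in B9, a log2 difference of 4.25 (standard error 0.86). Cyp2f4, of club cells, was at 65.3, 33.9, 3.41 and 3.12 FPKM (3.50, standard error 0.43). Agr2, of mucus-secreting cells, was at 20.8, 11.5, 0.733 and 1.75 FPKM (2.92, standard error 0.49), and Scgb3a1, a secretoglobin of larger airways, at 145, 14.2, 7.62 and 3.67 FPKM (2.89, standard error 1.01). Without A1 or without A6 the adjusted p of Cyp2a3, Cyp2f4 and Agr2 passed 0.05 in limma, and Scgb3a1 ranged from 1.26 without A1 to 4.53 without A6, where it passed too. Agr2 reached the mean of 1 FPKM needed to be tested only through A1 and A6, so it could enter the test only by being higher there. All 4 were listed at 0 in both A12 and B14, so that no treatment difference could be read for them in the lung-free libraries. On the lower side were Cxcl5 (-5.12, standard error 1.98), Il24 (-4.66, standard error 1.84) and Aldh1a3 (-3.88, standard error 1.28). Il24, a cytokine of the interleukin-10 family, was at 169 FPKM in A1, 0.913 in A6, 522 in B5 and 399 in B9, and at 557 and 496 FPKM in A12 and B14. Aldh1a3, a retinal dehydrogenase, was at 31.4 FPKM in A1, 0.491 in A6, 99.9 in B5 and 103 in B9, and at 170 and 140 FPKM in A12 and B14. In each of these 3 the value in A6 was far below that in A1, and without A6 the differences of Cxcl5, Il24 and Aldh1a3 were -1.63, -1.42 and -1.66, of which Aldh1a3 then passed the limma threshold with an adjusted p of 0.0230. Without A1 they were -8.61, -7.90 and -6.11, and all 3 passed.

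The gene lists moved with the treatment groups within the lung-rich libraries as follows, where the median over all genes was -0.24 and became 0.0358 with median-of-ratios scaling. Over all genes 3.87% were higher and 7.18% lower at an unadjusted p under 0.05 in limma, and with that scaling 839 were higher and 419 lower. In direction alone, 6940 of the 10740 genes were lower, and 5109 with that scaling. Of 12 ciliated cell genes 9 were higher and 0 lower at an unadjusted p under 0.05, with a median difference of 1.73. Of the 12, Dnai1 and 3 others reached a mean of 1 FPKM only through A1 and A6, and of the other 8 genes 5 were higher, with a median of 1.66. Club and secretory airway genes had 7 of 14 higher and 0 lower (median 1.34), and detoxification enzymes 11 of 21 higher and 1 lower (median 0.999). With 1 library left out, the first median ran from 0.85 (without A6) to 1.61 (without B9). The second ran from 0.69 (without B5) to 1.20 (without A1). Type 2 cell genes had 5 of 15 higher and 0 lower, with a median of 0.43. This median was 0.39 without B5, 0.97 without B9 and 0.74 with median-of-ratios scaling. The 31 cell division genes all had a lower mean in the digitoxin-treated pair (median difference -1.59), but 3 were so at an unadjusted p under 0.05, a share near that of all genes, and 27 with the replicate block. Their list median was 23.6 FPKM in A1 and 3.85 in A6, against 32.6 in B5 and 34.8 in B9, and the median difference was -0.43 without A6 and -2.81 without A1. All 18 glycolysis genes were lower, 16 with median-of-ratios scaling, and 7 at an unadjusted p under 0.05 (3 with that scaling), with a median of -0.53. It was -0.35 without A6 and -0.23 with that scaling. By list median the ciliated cell genes were at 8.07 FPKM in A1, 12.9 in A6, 2.52 in B5 and 2.47 in B9, without overlap between the treatments, whereas the type 2 medians given above overlapped. The part of the lung transcript level in the treatment differences was not tested. The count of 2 genes past the adjusted limma threshold rested on the libraries used, and leaving out any 1 left an arm with 1 library.

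In the lung-free libraries there was 1 sample of each treatment, and their difference is given without a test. A12 and B14 differed by at least 2-fold at 31 genes higher (0.289%) and 180 lower (1.68%) in A12, the digitoxin-treated one, with a median over all genes of -0.0102. Macrophage, matrix and blood lists were among the lower, as were smooth muscle (median -0.86) and skeletal muscle (-1.26). Of 19 macrophage genes described all were lower in A12, 9 by 2-fold, with a median of -0.97, and of 18 fibroblast and matrix genes 17 were lower, with a median of -0.49. Csf1r, a macrophage growth factor receptor, was at 14.8 FPKM in A12 and 32.8 in B14, and Dcn, a matrix proteoglycan, at 230 and 681 FPKM. All 6 red blood cell genes were lower in A12 too, with a median of -1.48. Cell division genes lay close together, with 24 of 31 higher in A12 and a median of 0.14. Of the 9 EMT genes, Zeb2 (2.53 and 6.01 FPKM in A12 and B14), Timp3, Cdh11 (1.80 and 4.73 FPKM), Tgfbr2, Axl (9.59 and 23.2 FPKM), Epas1 and Aldh1a2 were lower in A12, and Sfrp4 and Wt1 were higher. Within the lung-rich libraries the same genes had differences of -1.42 (Zeb2), 0.37 (Timp3), -0.23 (Cdh11), -1.003 (Tgfbr2), -0.27 (Axl), -0.32 (Epas1), 0.0230 (Aldh1a2), 0.58 (Sfrp4) and -0.0403 (Wt1), with standard errors from 0.41 to 1.01, and none passed the adjusted threshold of limma. Zeb2 ran from -2.15 without A1 to -0.694 without A6 and Tgfbr2 from -1.88 to -0.128, each with 1 digitoxin-treated library left.

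Whether the treatment difference itself was unlike between the sides was tested with the interaction term of limma over all 6 libraries. The spread in this fit came from the lung-rich arms alone, and the single lung-free libraries were assumed to vary like them. At an adjusted p under 0.05, 0 genes (0%) passed, and 221 (2.06%) had an unadjusted p under 0.05. The smallest Benjamini-Hochberg adjusted p in limma was 0.0743, for Mir214, another hairpin entry, named after its values were seen, which had 587 FPKM in A12 and 0 elsewhere. Mir214 reached the mean of 1 FPKM only through A12, so it could enter the test only by being high there. The count of passing genes rose without A1, A6 or B9, and without a trend in the spread. A p that misses the threshold with 1 library in each lung-free arm does not show that the sides responded alike.

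**Figure D5:**
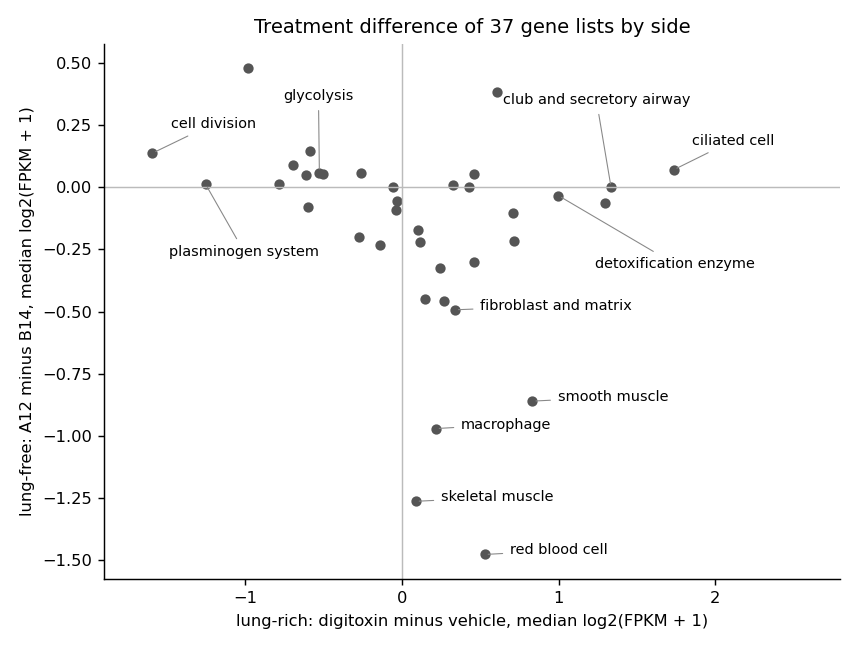
Median treatment difference in log2(FPKM + 1) of each of 37 gene lists, within the 4 lung-rich libraries (x axis, 2 digitoxin minus 2 vehicle) and within the 2 lung-free libraries (y axis, A12 minus B14, 1 library each, not replicated). Cell division stood at -1.59 and 0.14, ciliated cell at 1.73 and 0.0703, macrophage at 0.22 and -0.97, and red blood cell at 0.53 and -1.48.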

How the data were processed

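Messenger RNA of 6 PAIII tumors was sequenced, 1 library per rat. The authors deposited 1 table of FPKM with a column per library. The notes of the submitters name CASAVA, FastQC, Bowtie2, TopHat2, Cufflinks and Cuffdiff and list hg19, a human build, although the positions are on rat chromosomes. The rat build is not given in the sources used here. Of 17557 rows, 467 symbols stood on several, and the row of highest mean was then used, and 23 symbols changed to dates were left out of the named genes. All 6 columns were matched to samples by name.

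Depth is unknown, and no counting interval or detection limit is given. Steps between low FPKM values were examined and gave no common depth ratio to B9, since the commonest ratio was shared by no more than 9.38% of the rows compared.

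Libraries were sorted by Sftpc into above 1000 and below 1 FPKM. Levels were taken as log2(FPKM + 1) for genes with a mean of at least 1 FPKM, which understates the difference of low genes. Genes were counted where the sides did not overlap and differed by at least 4-fold. Digitoxin and vehicle were compared in the 4 lung-rich libraries, and the interaction in all 6, with limma 3.58.1 in R 4.3.3 (lmFit and eBayes with a trend, two-sided, Benjamini-Hochberg). The fit was tested on simulated data. Promoter and miRNA sequences are from RefSeq (GRCr8). Of the 15 highest and 15 lowest genes 10 each had a promoter in the table. Python 3.11.15, numpy 2.4.6, pandas 2.3.3 and matplotlib 3.10.9 were used.

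The genes named are the 4 markers, the 15 with the highest and the 15 with the lowest difference, up to 4 per list by mean FPKM, the 9 EMT genes, and 5 rises and 5 falls with digitoxin. Other genes, among them further list members given as contrasts, were chosen after their values were seen. The libraries and the 37 lists were chosen with earlier results of these data known. Other settings tried were median-of-ratios scaling, no filter, 0.1 as the pseudocount, a 2-fold limit, medians of a side, each row kept, no trend, the replicate number as a block, all 6 libraries with or without the side as a term, and each library left out in turn. Deviations of same-numbered libraries from their treatment means correlated at 0.430, 0.607 and 0.869 over all 6 libraries, where replicate 3 is lung-free in both groups, but at -0.0792 within the lung-rich libraries. The labels do not say that a number marks a shared animal or day. Results with the block are given for all genes, for the named genes that changed in call and for the cell division list.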

Additional observations from a re-analysis of the deposited data

Results flagged for a closer look

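Among the 4 lung-rich libraries, the median log2(FPKM + 1) of each of 37 lists was examined for a library standing apart from the other 3, and 2 lists had one. The gap of the extreme library to its neighbor is given as a share of the whole range, which had to pass Dixon's critical value for 4 samples. For the S100 and annexin list the highest library was B9, with a median of 8.86 and a gap of 0.904 of the range. That range was narrow, with list medians of 429 FPKM in A1, 430 in A6, 432 in B5 and 463 in B9. For the plasminogen system list the lowest was A6, with a median of 3.51 and a gap of 0.938 of the range. Chance gives about 1 such list in 20.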

How the results depend on the processing

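Between the kinds of library, the 662 higher genes became 1063 with a pseudocount of 0.1 and 1698 at 2-fold, and 582 to 767 with 1 library left out. The 244 lower genes became 509, 1497, 135 with medians of a side, and 102 to 417 with 1 library left out.

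For digitoxin within the lung-rich libraries, 2 genes passed an adjusted p of 0.05, which became 0 with all 6 libraries as labelled, 0 with side as a term, 0 with no filter, and 3 to 3349 with 1 library left out, the lone library of an arm then being assumed to vary like the others. The 416 higher at unadjusted p became 7 as labelled, 153 with side, 839 with median-of-ratios scaling, and 125 to 1116. The 771 lower became 29, 272 and 419 under the same alternatives, 436 with no filter, 478 with a pseudocount of 0.1, and 137 to 3489. For the interaction, the 0 genes became 1 without a trend and 0 to 1367, the 28 higher became 133 with no filter and 12 to 2181, and the 193 lower became 315 with scaling, 349 with no filter and 47 to 668. A12 and B14 could not be left out of the interaction. The cause of these moves was not tested.

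With the replicate number as a block, 272 genes passed, with 461 higher and 1240 lower at unadjusted p. Of the 19 genes named for digitoxin or EMT and refitted singly, 8 then passed. No block was fitted for the interaction.

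Single EMT genes reversed. Aldh1a2 was -0.0824 and Timp3 -0.125 with all 6 libraries, with or without side, and Wt1 0.0312. With scaling Axl was 0.0156 and Wt1 0.178. With 1 library left out the ranges were -0.478 to 0.524 (Aldh1a2), -1.05 to 0.496 (Axl), -0.806 to 0.348 (Cdh11), -1.72 to 1.08 (Epas1), -0.616 to 1.35 (Timp3) and -0.530 to 0.449 (Wt1). Of all values of single results under an alternative, 1722 were the same in direction and side of the threshold or within the spread, 62 moved, 22 came to pass the threshold, 6 no longer passed it and 18 reversed. For the difference between the kinds of library, part of the 1722 was set in advance. Leaving out 1 lung-rich library could not shift a mean by as much as the spread used as the limit. Dropping the filter changed no difference. The level of the lower genes in A6 was also taken over genes chosen without A6, and list members were recounted without those that reached 1 FPKM only through A1 and A6, both added after seeing the data. Depth is unknown, so the precision of low FPKM is too.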
